A study of Mus musculus with 21 samples.

Results

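The genes of apolipoproteins and chylomicron assembly were followed in E18.5 mouse small intestine. They were chosen by symbol, as all probes of the array annotated to Apoa1, Apoa4, Apob, Apoc2, Apoc3, Apoe, Apobec1, Mttp, Sar1b or Creb3l3. These 10 genes, of 19057 with a symbol, had 14 probes of 45281. Apoa4 had 3 probes and Apoc2 and Sar1b had 2 each. All 14 probes passed the filter on dim probes and are described below, among 16641 probes tested. The libraries, 10 labelled Prdm1-/- and 11 labelled Prdm1+/+, were biological replicates by their labels, with 1 Illumina WG6_V2 bead array each. Blimp1, the product of Prdm1, represses transcription and binds DNA through zinc fingers. The labelled mutants carried Villin-Cre, which recombines in intestinal epithelium and not in the other cells of the gut wall, together with the Prdm1 alleles CA and BEH. The labelled controls were Prdm1CA/+, with no Cre named in their label, so the presence of Villin-Cre and the state of Prdm1 cannot be told apart. Mothers of both groups were Prdm1CA/CA and carried the R26R allele, and the strain is given as mixed.

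Dietary fat leaves the enterocyte as chylomicrons. In the endoplasmic reticulum the microsomal triglyceride transfer protein Mttp loads lipid onto apolipoprotein B, the particle takes up apolipoprotein A-IV and others, and the small GTPase Sar1b drives the COPII vesicles that carry it to the Golgi. In the intestine the editing enzyme Apobec1 deaminates the Apob messenger, which then encodes the short form of the protein. Creb3l3 is a membrane-bound transcription factor of liver and gut, known in mouse as an activator of Apoa4 and other lipid genes.

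Before the results, the labels and the libraries were examined. A first Prdm1 probe (ILMN_2597923) was detected on all 10 arrays labelled mutant and on 0 of 11 labelled control, at 7.99 ± 0.59 against 4.55 ± 0.22 log2 intensity (SD, n = 10 and 11). The other Prdm1 probe was detected on 0 arrays of either group. The positions of these probes relative to the removed part of Prdm1 were not analysed here, and the result goes against a plain reading of the labels, and the groups are called labelled mutants and labelled controls throughout. Sucrase-isomaltase (Sis), a brush border disaccharidase of mature enterocytes, averaged 12.61 ± 0.29 in labelled mutants and 5.99 ± 0.28 in labelled controls (SD, n = 10 and 11). The markers of the labelled tissue were present, and the mean of 12 genes of intestinal epithelium ran from 10.44 to 10.82 in labelled mutants and from 10.25 to 10.49 in labelled controls. Of these 12 genes 4 were higher in labelled mutants and 1 was lower. Over all genes 10.6% were higher and 12.6% lower, shares to be set beside this and each marker count that follows. Hoxd10, a gene of the hindgut, was detected in 6 labelled mutants (4, 6, 7, 8, 9 and 10) and in 0 labelled controls, and the mean of 10 colon markers ran from 6.80 to 7.94 in labelled mutants and from 6.77 to 7.14 in labelled controls. Of these 10 markers 4 were higher in labelled mutants, 2 were lower and 4 did not pass. The higher ones were 1810065E05Rik (3.19, adjusted p = 8.83e-08), Cyp2c55 (1.38, adjusted p = 0.000358), Car1 (1.34, adjusted p = 0.0137) and Hoxd10 (1.2, adjusted p = 0.00848), all in limma. Car1 was detected in 6 labelled mutants and 0 labelled controls. The lower ones were Aqp8 (-1.58, adjusted p = 9.19e-08, limma) and Mettl7b (-0.98, adjusted p = 2.15e-07, limma). Hoxa13, another gene of the hindgut, was detected in 9 labelled mutants and 8 labelled controls. The mean of 17 liver markers ran from 6.06 to 7.07 in labelled mutants and from 7.25 to 8.75 in labelled controls, where it was 8.53 and 8.75 in controls 9 and 11 and 7.25 to 7.82 in the other 9. Among these markers Ahsg, a plasma protein gene of liver, was at 4.47 to 7.41 in labelled mutants, at 8.38 to 9.43 in labelled controls 8, 9 and 11 and at 4.45 to 6.60 in the other labelled controls, while Alb was detected on 0 arrays. Of the 17 liver markers 0 were higher in labelled mutants, 9 were lower and 8 did not pass. The largest falls were in Afp (-3.34), Ttr (-2.53) and Trf (-2.14). These also stand in a list of plasma protein genes shared with fetal gut, given below. Ahsg did not pass (adjusted p = 0.532, limma). Of 17 macrophage and leukocyte markers 1 was higher and 5 were lower in labelled mutants, with list means of 6.74 to 7.26 against 7.10 to 7.46 in labelled controls. The mean of 8 proximal markers of the small intestine ran from 7.99 to 8.85 in labelled mutants and from 8.11 to 8.78 in labelled controls (2 higher and 2 lower), and that of 8 distal markers from 8.80 to 9.47 and from 8.71 to 9.29 (1 higher and 1 lower). The mean of 13 pancreas markers ran from 5.40 to 11.66 in labelled mutants and from 5.60 to 10.52 in labelled controls (1 lower), and that of 12 mesenchyme markers from 9.48 to 9.93 and from 9.21 to 9.74 (1 higher). The part of these other cells and regions in the lipoprotein results was not tested beyond leaving libraries out and a fit with the pancreas mean as a covariate, in which the same number of member probes, 8 of 14, was called. In whole tissue, fewer cells of a type and less RNA per cell cannot be told apart.

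Of the 10 genes, 7 were lower in labelled mutants at 1 or more of their probes, by 1.19 to 1.36 times. They were the apolipoprotein genes Apoa4, Apoc2 and Apoc3, the editing enzyme gene Apobec1, the assembly and transport genes Mttp and Sar1b, and the regulator gene Creb3l3. Apoa1, Apob and Apoe did not pass the test. By probe, 8 of 14 were lower, 0 were higher and 6 did not pass, at a Benjamini-Hochberg adjusted p under 0.05 over all probes in limma. Over all probes 11.4% were lower in labelled mutants and 9.49% higher, or 20.9% in either direction. By gene, taking the brightest probe of each, 6 of 10 were lower, against 12.6% lower and 10.6% higher of 9961 genes, or 23.2% in either direction. The members were chosen with earlier results of these data known, so these shares are a description and not a test. All 14 differences were negative, from -0.45 to -0.03 on the log2 scale, with a median of -0.27 beside 0.01 over all probes. The median size was 0.36 among the 8 called probes and 0.38 among all 3485 changed probes.

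**Figure D1:**
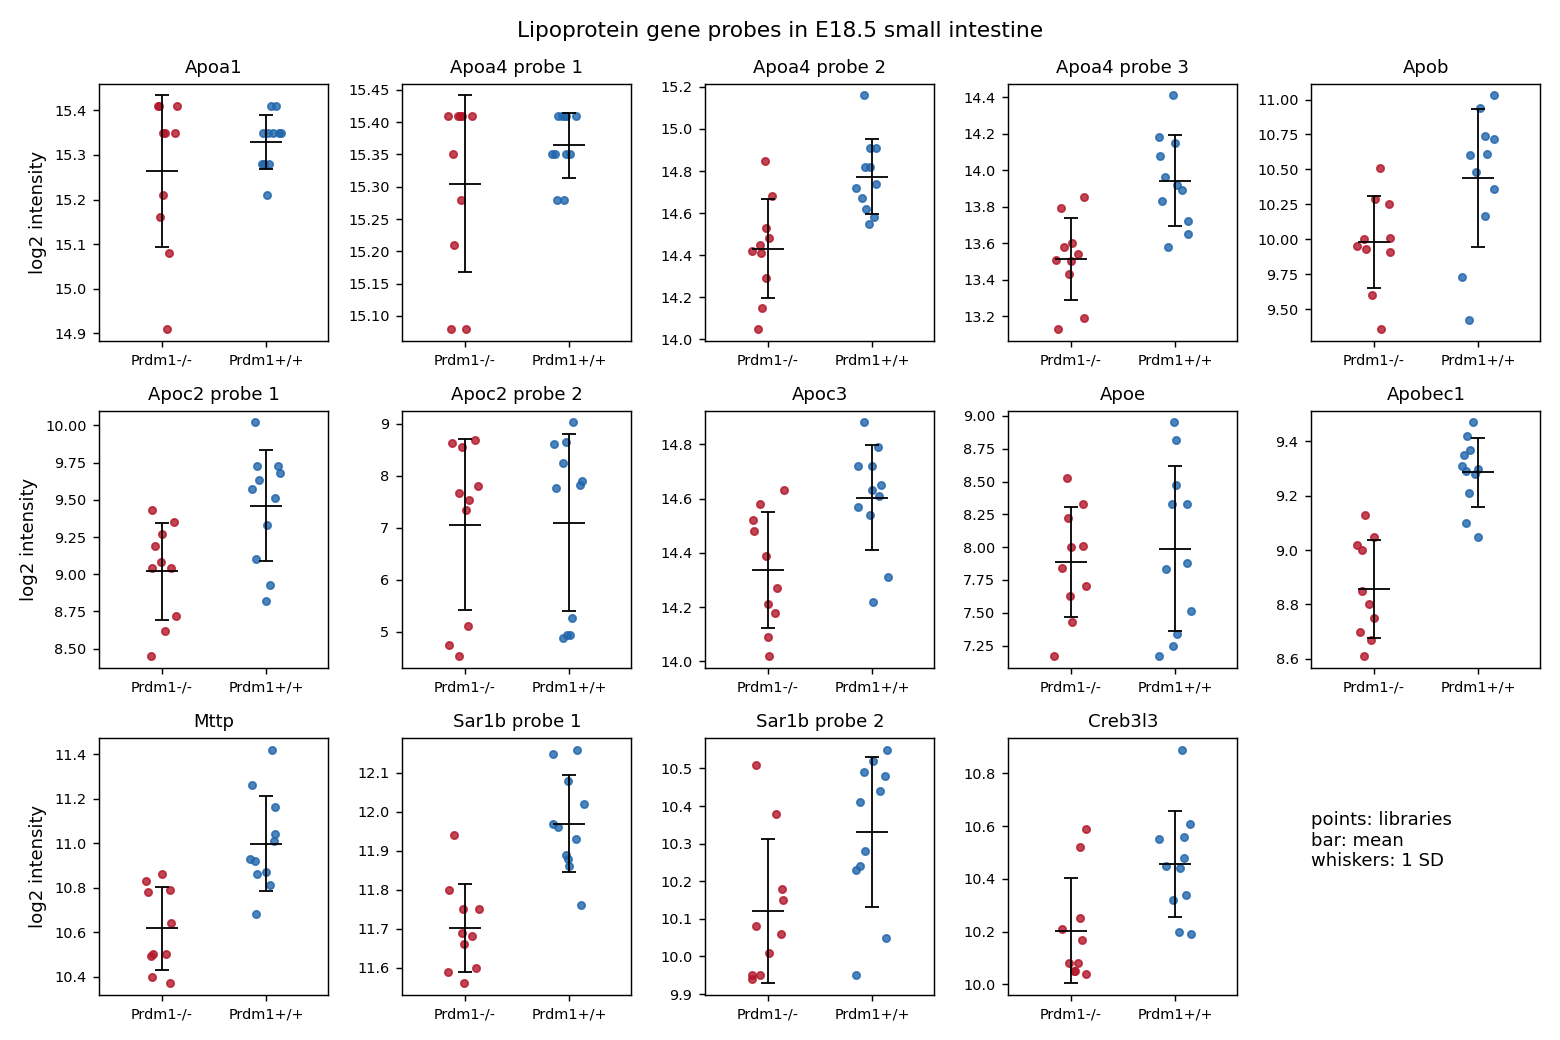
Log2 intensity of the 14 lipoprotein gene probes, with 1 point per library, labelled mutants (Prdm1-/-) left and labelled controls (Prdm1+/+) right, the mean as a bar and 1 SD as whiskers. The scale differs between panels, and the groups overlap in every panel, least for Apobec1, where 9 of 10 labelled mutants lie below the lowest labelled control.

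The count rested in part on single libraries. It was 5 of 14 without labelled mutant 4, 6 or 10, or without labelled control 1, 2, 9, 10 or 11, and 5 to 9 over all 21 such fits. In each of those 8 fits the calls lost were Apoc2 probe 1, Apoc3 and Creb3l3. Apoa4 probes 2 and 3, Apobec1, Mttp and Sar1b probe 1 passed in all 21. It was also 5 of 14 without labelled controls 8, 9 and 11, the highest in Ahsg, where 9.57% of all probes were lower, and without labelled controls 9 and 11, the highest in the mean of the liver markers (9.94% of all probes lower). The same 3 calls were lost in both fits. With the 6 labelled mutants with Hoxd10 left out it was 1 of 14, with 5.96% of all probes lower. That fit held 4 labelled mutants, and Apobec1 was the probe that passed. The differences there kept their sign in 12 of 14 probes, with a median of -0.17. At the brightest probe per gene the counts were 3 of 10 without labelled controls 8, 9 and 11 and 1 of 10 without the 6 labelled mutants.

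**Figure D2:**
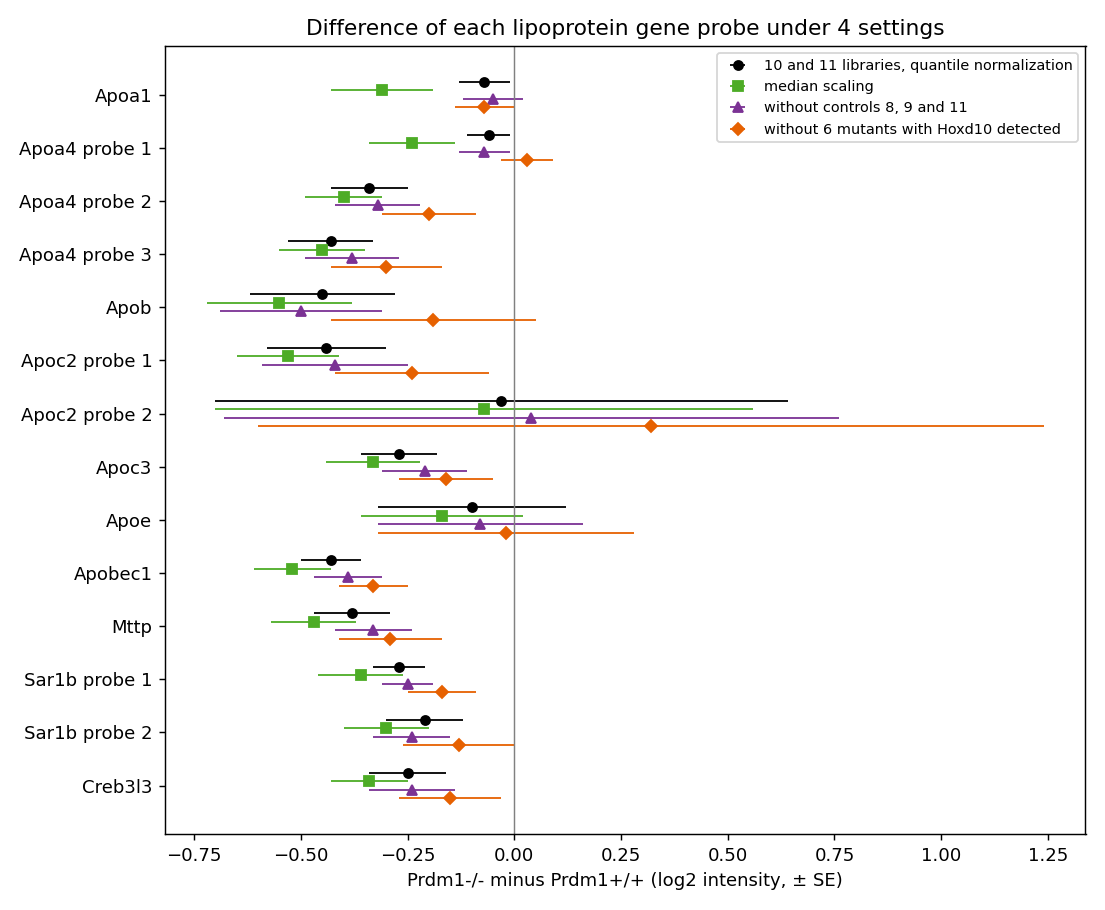
Difference of each lipoprotein gene probe (labelled mutants minus labelled controls, log2 intensity, whiskers ± SE) with all libraries and quantile normalization, with median scaling, without labelled controls 8, 9 and 11 and without 6 labelled mutants. Median scaling moved Apoa1 to -0.31 and Apoa4 probe 1 to -0.24, and leaving out the 6 labelled mutants with Hoxd10 drew most differences towards 0.

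Promoter windows, from 250 bases before to 50 after an annotated start, were read from RefSeq (GRCm38.p6) for 9 of the 10 genes, in 12 windows. Apoc3 had none there. The motifs searched on both strands were CAAAGTCCA of Hnf4, the nuclear receptor direct repeat of AGGTCA with 1 base between the copies, AGNGAAAG of Blimp1, the cyclic AMP element core TGACGT and the TATA box TATAAA. CAAAGNNCA, which covers the first motif, and a single AGGTCA, which the direct repeat contains, were added after the sequences were seen. CAAAGTCCA, the direct repeat and AGNGAAAG were in 0 of the 12 windows, and in 0.475%, 0.0396% and 8.63% of all 32851 windows. TGACGT was in 1 member window (7.51% of all), TATAAA in 3 (13.6%), CAAAGNNCA in 4 (6.36%) and AGGTCA in 2 (16.3%). The 5 windows below are those of genes that fell and hold a match, shown 5′ to 3′ along the gene with the matches in capitals. Positions count from the annotated start as 0. Apoa4 (chr9:46240594-46240893, plus strand) holds CAAAGTTCA at -182 and Apobec1 (chr6:122602395-122602694, minus strand) holds the same letters at -191, with a TATAAA match on the other strand at -212. Creb3l3 (chr10:81092542-81092841, minus strand) holds AGGTCA at -202 and CAAAGNNCA on the other strand at -173. Apoc2 (chr7:19677892-19678191, minus strand) holds AGGTCA at -115 and 42, and Mttp (chr3:138143369-138143668, minus strand) holds TGACGT on the other strand at -29. The windows of Apobec1 and Creb3l3 belong to starts inside the gene. A second Creb3l3 window (chr10:81098823-81099122) held 0 matches, as did the window of Sar1b, which fell at 1 probe. Genes that were not called held matches too. Apob had CAAAGNNCA on the other strand at -103 and TATAAA at -60. Apoe had TATAAA at -96, and on the other strand at -100, in 1 window. A match is a run of letters and was not tested as a site.
Apoa4: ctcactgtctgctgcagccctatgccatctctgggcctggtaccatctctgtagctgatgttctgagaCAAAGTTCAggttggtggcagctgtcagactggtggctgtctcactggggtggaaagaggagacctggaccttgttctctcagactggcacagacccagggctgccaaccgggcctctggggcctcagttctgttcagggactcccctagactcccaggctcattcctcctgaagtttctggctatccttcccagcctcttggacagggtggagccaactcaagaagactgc
Apobec1: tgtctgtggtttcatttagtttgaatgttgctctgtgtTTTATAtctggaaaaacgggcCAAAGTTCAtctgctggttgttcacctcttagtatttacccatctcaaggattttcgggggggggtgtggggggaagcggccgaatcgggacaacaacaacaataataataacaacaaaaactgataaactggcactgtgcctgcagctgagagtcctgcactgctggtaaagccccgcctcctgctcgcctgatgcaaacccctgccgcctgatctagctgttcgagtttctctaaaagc
Creb3l3: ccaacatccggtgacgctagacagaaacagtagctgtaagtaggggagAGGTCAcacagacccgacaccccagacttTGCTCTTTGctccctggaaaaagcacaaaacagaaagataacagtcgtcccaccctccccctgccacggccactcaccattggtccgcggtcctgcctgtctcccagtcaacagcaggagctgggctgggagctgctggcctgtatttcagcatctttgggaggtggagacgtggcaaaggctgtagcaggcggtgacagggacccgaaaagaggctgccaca
Apoc2: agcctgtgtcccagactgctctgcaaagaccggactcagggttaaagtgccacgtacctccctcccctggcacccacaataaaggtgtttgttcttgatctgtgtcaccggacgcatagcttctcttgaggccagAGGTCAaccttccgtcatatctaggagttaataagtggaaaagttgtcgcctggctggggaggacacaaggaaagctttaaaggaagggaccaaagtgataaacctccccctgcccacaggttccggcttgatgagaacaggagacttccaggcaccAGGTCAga
Mttp: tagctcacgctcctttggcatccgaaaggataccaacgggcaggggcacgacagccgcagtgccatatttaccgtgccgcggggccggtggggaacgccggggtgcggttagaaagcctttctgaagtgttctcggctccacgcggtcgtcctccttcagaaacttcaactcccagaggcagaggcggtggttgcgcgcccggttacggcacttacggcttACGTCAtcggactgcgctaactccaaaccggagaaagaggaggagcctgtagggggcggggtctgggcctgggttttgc

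Apolipoprotein A-I (Apoa1) and apolipoprotein A-IV (Apoa4), together with Apoc3, lie within 1 cluster on chromosome 9 of GRCm38. Apoa1 spans chr9:46228630-46230469, Apoc3 chr9:46233050-46235636 and Apoa4 chr9:46240844-46243458, and the starts of Apoa1 and Apoa4 are 12.2 kb apart. Their probes were among the brightest of the arrays. The brightest probe of an array was Apoa4 probe 1 on 10 arrays, Apoa1 on 5 and another on 6, and both were in the top 10 on all 21. The brightest raw intensity ran from 29913 to 56719 between arrays. Quantile normalization gives each rank a fixed value, 15.41 for rank 1, 15.35 for rank 2, 15.28 for rank 3 and 14.91 for rank 9, so a probe at the top can fall only by losing ranks. Intensities of different probes do not rank the amounts of their messengers.

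Apoa1, the main protein of high density lipoprotein, ran from 14.91 through a median of 15.35 to 15.41 log2 intensity in labelled mutants and from 15.21 through 15.35 to 15.41 in labelled controls. The groups shared their median and their highest value, and 3 labelled mutants lay below the lowest labelled control. Its ranks were 1 to 9 in labelled mutants and 1 to 4 in labelled controls, with a median of 2 in both. The raw intensity had a median of 37464 in labelled mutants (26717 to 48793) and 48232 in labelled controls (30184 to 56509), before any scaling between arrays. The normalised difference was -0.07 ± 0.06 (SE, 95% confidence interval -0.19 to 0.06, adjusted p = 0.516 in limma). With arrays brought to a common median in place of quantiles it was -0.31 ± 0.12, with an adjusted p of 0.0853 in limma.

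Apoa4, which enters nascent chylomicrons in the enterocyte, gave a call that depended on the probe. Probe 1 (ILMN_1250349) ran from 15.08 through 15.38 to 15.41 in labelled mutants and from 15.28 through 15.35 to 15.41 in labelled controls, at ranks 1 to 6 and 1 to 3. Its difference of -0.06 ± 0.05 (SE, 95% confidence interval -0.17 to 0.05) did not pass (adjusted p = 0.495, limma). With median scaling it was -0.24 ± 0.10 (adjusted p = 0.122, limma), and without the 6 labelled mutants with Hoxd10 it was 0.03.

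Probes 2 and 3 of Apoa4 lay further down the range and both fell. Probe 2 (ILMN_2834123) ran from 14.05 through 14.44 to 14.85 in labelled mutants and from 14.55 through 14.74 to 15.16 in labelled controls. Of 10 labelled mutants, 8 were below the lowest labelled control, and the ranks were 11 to 76 against 5 to 28. The fall was 1.27-fold (-0.34 ± 0.09 log2, SE, adjusted p = 0.00756, limma). Probe 3 (ILMN_2754104) ran from 13.13 through 13.53 to 13.85 in labelled mutants and from 13.58 through 13.92 to 14.41 in labelled controls, a fall of 1.35-fold (-0.43 ± 0.10 log2, SE, adjusted p = 0.00323, limma). Its ranks were 102 to 200 in labelled mutants and 41 to 136 in labelled controls. Both probes passed with median scaling, at -0.40 and -0.45. They were at -0.20 and -0.30 when the 6 labelled mutants with Hoxd10 were left out, with adjusted p of 0.283 and 0.17 in limma. Within the labelled mutants, those 6 had medians of 14.35 and 13.46, and the other 4 had 14.51 and 13.59.

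Apoc3, an inhibitor of lipoprotein lipase and of remnant uptake, fell by less. It ran from 14.02 through 14.33 to 14.63 in labelled mutants and from 14.22 through 14.63 to 14.88 in labelled controls, and its ranks were 22 to 81 against 10 to 59. The groups overlapped over most of their range. The fall was 1.2-fold (-0.27 ± 0.09 log2, SE, adjusted p = 0.0358, limma). This call was lost in 11 of the 21 fits that left out 1 library, without labelled mutant 2, 4, 6, 7 or 10 or labelled control 1, 2, 7, 9, 10 or 11, with adjusted p up to 0.0716 in limma. Without the 6 labelled mutants with Hoxd10 it was -0.16, with an adjusted p of 0.447 in limma.

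**Figure D3:**
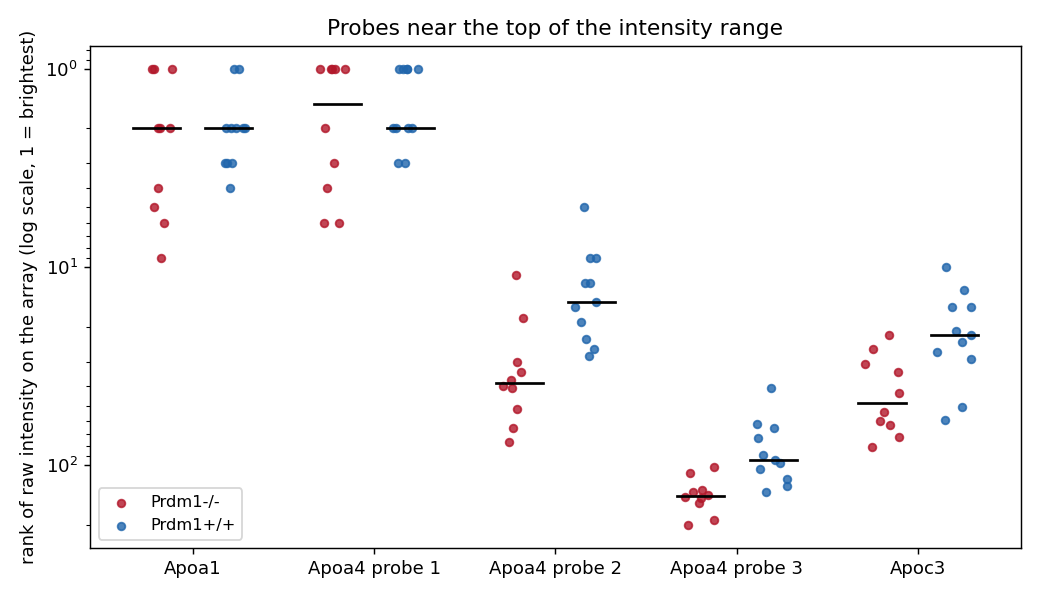
Rank of raw intensity on each array (log scale, 1 is the brightest probe) for the 5 lipoprotein gene probes nearest the top of the range, with 1 point per library and the median as a bar, labelled mutants (Prdm1-/-) left and labelled controls (Prdm1+/+) right. Apoa1 sits at ranks 1 to 9 in labelled mutants and 1 to 4 in labelled controls, and Apoa4 probe 1 at 1 to 6 and 1 to 3, while Apoa4 probes 2 and 3 and Apoc3 sit lower with labelled mutants further down.

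Apolipoprotein B (Apob, chr12:7977629-8016839), the structural protein of which each chylomicron carries a single copy, did not pass the test. It ran from 9.36 through 9.98 to 10.51 in labelled mutants and from 9.42 through 10.6 to 11.03 in labelled controls. The lowest values of the groups were alike, and the upper part of the labelled controls lay above the labelled mutants. The means were 9.98 ± 0.33 in labelled mutants and 10.43 ± 0.49 in labelled controls (SD, n = 10 and 11). The difference of -0.45 ± 0.17 (SE) was the most negative of the 14 and had a 95% confidence interval of -0.81 to -0.09, with an adjusted p of 0.069 in limma. It passed without labelled mutant 5, without labelled control 6 or without labelled control 8, with adjusted p down to 0.0101 in limma, and with median scaling (-0.55, adjusted p = 0.0273, limma). The difference without the 6 labelled mutants with Hoxd10 was -0.19 (adjusted p = 0.73, limma).

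Apobec1 (chr6:122577792-122603024), the cytidine deaminase that edits the Apob messenger, had the smallest adjusted p of the 14 probes. It ran from 8.61 through 8.83 to 9.13 in labelled mutants and from 9.05 through 9.3 to 9.47 in labelled controls. Of 10 labelled mutants, 9 lay below the lowest labelled control. The fall was 1.35-fold (-0.43 ± 0.07 log2, SE, adjusted p = 8.57e-05, limma), and a two-sided permutation test over samples gave 1e-05, the smallest that 100000 draws can give. It stayed past the threshold without any 1 library, with adjusted p up to 0.000249, without labelled controls 8, 9 and 11 (-0.39, adjusted p = 0.00134), and without the 6 labelled mutants with Hoxd10 (-0.33, adjusted p = 0.0159), all in limma. The partners of Apob editing were not called. Of 7 genes tested 0 were higher and 0 lower in limma, with 1 at an unadjusted p under 0.05. Their median was 0.06, or -0.02 with median scaling. Over all genes 23.2% were called in either direction, and 0 of 7 was not tested against that share. Syncrip, an RNA-binding protein of the editing complex, was at 8.45 ± 0.16 in labelled mutants and 8.23 ± 0.24 in labelled controls (SD, n = 10 and 11), with an adjusted p of 0.103 in limma. Rbm47, a cofactor of Apobec1 in mouse, was at 10.84 ± 0.31 in labelled mutants and 10.99 ± 0.34 in labelled controls (adjusted p = 0.532, limma). The array measures neither the edited base nor the protein.

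Mttp (chr3:138089855-138143418), which transfers triglyceride to apolipoprotein B, fell. It ran from 10.37 through 10.57 to 10.86 in labelled mutants and from 10.68 through 10.93 to 11.42 in labelled controls, so the groups met only between 10.68 and 10.86. The fall was 1.3-fold (-0.38 ± 0.09 log2, SE, adjusted p = 0.00253, limma). The call held in all 21 fits that left out 1 library, with adjusted p up to 0.0061 in limma. Without the 6 labelled mutants with Hoxd10 it was -0.29 (adjusted p = 0.143, limma), and the medians were 10.49 in those 6 and 10.74 in the other 4 labelled mutants.

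Sar1b (chr11:51763663-51791953), the GTPase that starts the COPII coat on chylomicron vesicles, fell at 1 of 2 probes. Probe 1 (ILMN_2997998) ran from 11.56 through 11.69 to 11.94 in labelled mutants and from 11.76 through 11.96 to 12.16 in labelled controls, a fall of 1.2-fold (-0.27 ± 0.06 log2, SE, adjusted p = 0.00193, limma). Probe 2 (ILMN_2715003) ran from 9.94 through 10.07 to 10.51 in labelled mutants and from 9.95 through 10.41 to 10.55 in labelled controls. Its difference of -0.21 ± 0.09 (SE, 95% confidence interval -0.39 to -0.03) did not pass, with an adjusted p of 0.0876 in limma. It passed without labelled mutant 1, without labelled control 8 and with median scaling (-0.30, adjusted p = 0.0374, limma). Probe 1 was at -0.17 without the 6 labelled mutants with Hoxd10, with an adjusted p of 0.222 in limma.

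Around these genes, 18 further genes of microsomal transfer and particle assembly were tested, of which 6 were lower, 1 was higher and 11 did not pass, where 12.6% of all genes were lower, with a median of -0.11 beside 0.01 over all genes. Cidec, a lipid droplet protein, averaged 8.26 ± 0.31 in labelled mutants and 8.91 ± 0.28 in labelled controls (SD, n = 10 and 11), a difference of -0.65 ± 0.12 (SE, adjusted p = 0.000412, limma). Mcfd2, the partner of the cargo receptor Lman1, differed by -0.53 ± 0.18 (SE, adjusted p = 0.0336, limma), and Pdia4, a disulphide isomerase of the endoplasmic reticulum, by -0.38 ± 0.06 (SE, adjusted p = 8.87e-05, limma). Lpcat3, which makes polyunsaturated phospholipid for lipoprotein membranes, rose by 0.33 ± 0.07 (SE, adjusted p = 0.00144, limma). Among 11 other genes of the COPII coat 2 were lower, 0 higher and 9 did not pass, a count near that share of all genes, with a median of -0.14. Sec16b, a scaffold of exit sites, differed by -0.39 ± 0.10 (SE, adjusted p = 0.0043, limma) and Sec13, of the outer coat, by -0.19 ± 0.04 (SE, adjusted p = 0.0021, limma). In the fit without the 6 labelled mutants with Hoxd10, 2 genes of the assembly list and 0 of the coat list were called, against 7 and 2 with all libraries, and 1251 of all genes, against 2307.

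Creb3l3 (chr10:81084329-81098872) fell by the smallest fold of the called probes. It ran from 10.04 through 10.13 to 10.59 in labelled mutants and from 10.19 through 10.45 to 10.89 in labelled controls. Most labelled mutants lay at the low end, and 2 of them reached 10.52 and 10.59. The fall was 1.19-fold (-0.25 ± 0.09 log2, SE, adjusted p = 0.0415, limma). This call was lost in 14 of the 21 fits that left out 1 library, without labelled mutant 2, 3, 4, 6, 7, 9 or 10 or labelled control 1, 2, 4, 8, 9, 10 or 11, with adjusted p up to 0.0763 in limma. Without the 6 labelled mutants with Hoxd10 it was -0.15 (adjusted p = 0.505, limma).

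Within the groups, levels of many members moved together from library to library, among them Creb3l3, Mttp, Apobec1, Apoc3 and Apoa4 at its probes 2 and 3. Each probe was set against each other probe as the deviation from its own group's mean over 21 arrays, in 91 pairs tested by permutation within groups. By Pearson 25 pairs passed after Benjamini-Hochberg adjustment, all positive, and by Spearman 36 passed, 35 positive and 1 negative, with 24 past by both. The negative pair was Apoa1 and Sar1b probe 2 (r = -0.46 and rho = -0.57, permutation p = 0.039 and 0.0064, adjusted to 0.10 and 0.025), with r = -0.47 without the 2 farthest libraries. Apoa4 probe 2 and Creb3l3 had a Pearson r of 0.89 and a Spearman rho of 0.86 (permutation p = 1e-05 for both, the smallest possible, adjusted to 0.00018 and 0.00023). Without the 2 libraries farthest from the median of Apoa4 the r was 0.79. Probe 3 had r = 0.84 and rho = 0.80 with Creb3l3 (permutation p = 1e-05 and 3e-05, adjusted to 0.00018 and 0.00039), and 0.80 without the 2 farthest. Probe 1 of Apoa4 did not pass with Creb3l3 (r = 0.32 and rho = 0.35, permutation p = 0.15 and 0.11, adjusted to 0.25 and 0.20), and had r = 0.26 without the 2 farthest. Mttp and Creb3l3 had r = 0.75 and rho = 0.87 (permutation p = 0.00016 and 1e-05, adjusted to 0.0013 and 0.00023), and r = 0.77 without the 2 farthest. Apoa4 probe 3 and Apobec1 had r = 0.84 and rho = 0.83 (permutation p = 1e-05 and 2e-05, adjusted to 0.00018 and 0.00036), and 0.83 without the 2 farthest. Creb3l3 also passed by both with Apobec1 (r = 0.71), Apoc2 probe 1 (r = 0.63), Apoc3 (r = 0.60) and Apoe (r = 0.57). Without the 2 farthest these were 0.67, 0.58, 0.59 and 0.41. Apoa4 probe 2 passed by both with Apobec1 (r = 0.81), Apoc3 (r = 0.75) and Mttp (r = 0.74). Sar1b probe 1 and Creb3l3 had r = -0.26 and rho = -0.10 (permutation p = 0.27 and 0.68, adjusted to 0.40 and 0.80), and -0.42 without the 2 farthest. Apoa4 probes 2 and 3, which read the same gene, had r = 0.95 and rho = 0.94 (permutation p = 1e-05 for both), and 0.94 without the 2 farthest. These deviations share array, tissue piece and normalisation, and the first component of the deviations over all probes held 32.3% of their variance.

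Over all genes tested, the gene outside the 10 whose deviations were most like those of Creb3l3 was Cidec (r = 0.92, over 21 arrays). Cidec was also the most like Apoa4 probe 2 (r = 0.92) and probe 3 (r = 0.93). The other members had a different first gene each. These were Brwd1 for Apoa1 (r = 0.88), Rdh5 for Apoa4 probe 1 (r = 0.86), Spg21 for Apob (r = 0.86), Tapbpl for Apoc2 probe 1 (r = 0.90) and Apol7a for Apoc3 (r = 0.87). Prap1 was first for Apobec1 (r = 0.87), Slc6a8 for Mttp (r = 0.85), 1700019D03Rik for Sar1b probe 1 (r = 0.85) and Bet1 for Sar1b probe 2 (r = 0.90). These are descriptions from a search over all genes, with no test.

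Apolipoprotein C-II (Apoc2), the activator of lipoprotein lipase, had 2 probes, of which 1 was called. Probe 1 (ILMN_2880540) ran from 8.45 through 9.06 to 9.43 in labelled mutants and from 8.82 through 9.57 to 10.02 in labelled controls. It fell by 1.36-fold (-0.44 ± 0.14 log2, SE, adjusted p = 0.0327, limma). The call was lost in 9 of the 21 fits that left out 1 library, without labelled mutant 4, 6 or 10 or labelled control 1, 2, 4, 9, 10 or 11, with adjusted p up to 0.0636, and without the 6 labelled mutants with Hoxd10 it was -0.24 (adjusted p = 0.523), both in limma. Probe 2 (ILMN_2647820) ran from 4.53 through 7.6 to 8.69 in labelled mutants and from 4.87 through 7.81 to 9.02 in labelled controls. Its difference was -0.03 ± 0.67 (SE, 95% confidence interval -1.42 to 1.36, adjusted p = 0.984, limma), an interval too wide to say whether it differed as probe 1 did.

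Within both groups, probe 2 of Apoc2 split the libraries with a gap between 5.27 and 7.34. Below it lay 7 libraries, the labelled mutants 2, 4 and 6 and the labelled controls 2, 6, 7 and 11, and 14 lay above it, 7 of each label. The probe was detected on 7 of 10 arrays of labelled mutants and 8 of 11 of labelled controls. Probe 1 of the same gene showed no such gap, at 8.62 to 9.73 in the 7 libraries and at 8.45 to 10.02 in the 14. Apoe (apolipoprotein E, a ligand for remnant uptake) lies at chr7:19696244-19701310, with its start 24.7 kb from that of Apoc2 (chr7:19671579-19677941). Its level was 7.17 to 7.70 in the 7 libraries and 7.63 to 8.95 in the 14. Apoc1, an apolipoprotein gene between them (chr7:19689480-19692659), was at 11.44 to 12.70 in the 7 libraries and at 9.92 to 12.35 in the 14 at its brighter probe.

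Apoe was not called between the labels. It ran from 7.17 through 7.92 to 8.53 in labelled mutants and from 7.17 through 7.88 to 8.95 in labelled controls, a difference of -0.10 ± 0.22 (SE, 95% confidence interval -0.56 to 0.35) that did not pass (adjusted p = 0.808, limma). Apoc1 was at 11.43 ± 0.93 in labelled mutants and 11.3 ± 0.73 in labelled controls (SD, n = 10 and 11), with an adjusted p of 0.846 in limma. Since the libraries fell into 2 clusters, probe 2 of Apoc2 was set against its neighbours only among the 14 libraries above the gap, in 2 relations. Unlike the pairs above, these used levels and not deviations from a group mean. The permutation ran over both labels together, so genotype was not taken out. It had r = 0.67 and rho = 0.64 with Apoe (permutation p = 0.0094 and 0.015, the first adjusted to 0.019), and 0.66 without the 2 farthest. With Apoc1 it had r = -0.59 and rho = -0.53 (permutation p = 0.029 and 0.05, the first adjusted to 0.029), and -0.63 without the 2 farthest. No correlation is given for the 7 libraries below the gap, of which 6 were undetected at this probe.

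Over all 21 libraries, on both sides of the gap, the genes whose deviations were most like those of Apoc2 probe 2 lay on the same chromosome. The 2 clusters therefore enter these likenesses. All 5 of the closest were on chromosome 7, at 45 to 9162 kb, led by Zfp235 at 4461 kb, against 7.61% of all genes tested. For Apoe it was 4 of 5, led by Fbxo46 at 576 kb (r = 0.79), and for Apoc2 probe 1 it was 0 of 5. The neighbours of the apolipoprotein clusters on chromosomes 7 and 9 were not called. Of 9 tested 0 were higher and 0 lower in limma, with 1 at an unadjusted p under 0.05. This count was not tested against the 23.2% of all genes called in either direction. Tomm40, a mitochondrial import pore gene beside Apoe, had an adjusted p of 0.133 and Pcsk7, a proprotein convertase gene near Apoa1, of 0.185, both in limma.

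**Figure D4:**
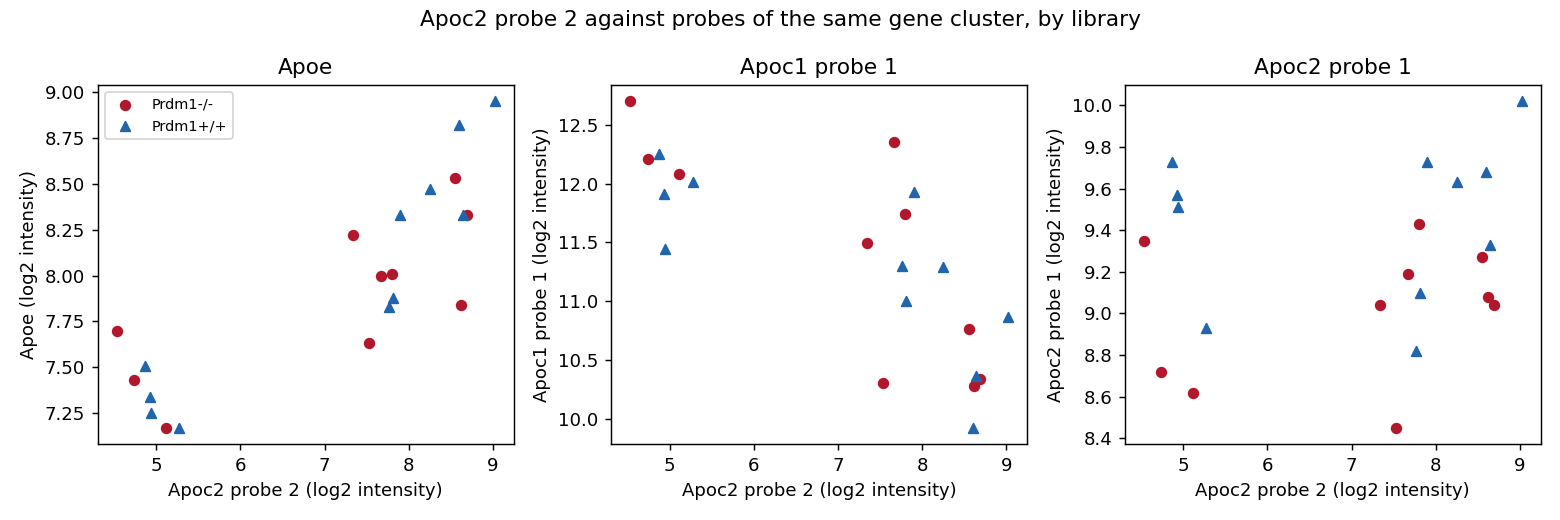
Log2 intensity of Apoc2 probe 2 against Apoe, Apoc1 probe 1 and Apoc2 probe 1, with 1 point per library, circles for labelled mutants (Prdm1-/-) and triangles for labelled controls (Prdm1+/+). The points form 2 clusters, of which 7 libraries of both labels lie at 4.53 to 5.27 on the horizontal axis and 14 at 7.34 to 9.02, and Apoe is at 7.17 to 7.70 in the first and 7.63 to 8.95 in the second.

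Of 18 genes of triglyceride resynthesis, which make and store the triglyceride for these particles, 7 were lower, 1 was higher and 10 did not pass, beside 12.6% lower and 10.6% higher over all genes, with a median of -0.21 beside 0.01 over all genes. Plin2, a coat protein of lipid droplets, ran from 8.25 through 8.71 to 8.86 in labelled mutants and from 9.11 through 9.37 to 9.55 in labelled controls, with no overlap. Its difference was -0.73 ± 0.07 (SE, adjusted p = 6.61e-08, limma). Plin3, a related coat protein, differed by -0.52 ± 0.08 (SE, adjusted p = 3.5e-05, limma), and the desaturase gene Scd2 by -0.54 ± 0.10 (SE, adjusted p = 0.000178, limma). Lpin1, a phosphatidate phosphatase, differed by -0.55 ± 0.15 (SE, adjusted p = 0.00987, limma). The count was 5 of 18 without the 6 labelled mutants with Hoxd10, of which 4 were lower, in a fit that called 1251 of all genes against 2307 with all libraries.

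Genes that act on lipoproteins after secretion were called in both directions, as were all genes (10.6% higher and 12.6% lower). Of 13 genes of lipolysis and lipoprotein receptors 3 were higher, 3 lower and 7 did not pass, with a median of 0.07, or -0.01 with median scaling. Lrp2 (megalin), an endocytic receptor, averaged 6.59 ± 0.53 in labelled mutants and 8.34 ± 0.60 in labelled controls (SD, n = 10 and 11), a fall of 3.36-fold (adjusted p = 4.17e-06, limma). Amn, which anchors the receptor cubilin, fell by 1.29-fold (adjusted p = 4.81e-05, limma). Of the angiopoietin-like genes, whose products act on lipoprotein lipase activity, Angptl8 was lower by 1.49-fold (adjusted p = 7.25e-05, limma) and Angptl4 higher by 1.37-fold (adjusted p = 0.000487, limma).

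Among 7 other apolipoprotein genes tested 2 were higher, 1 was lower and 4 did not pass, with a median of 0.11. Over all genes 10.6% were higher and 12.6% lower. Apom, carried on high density lipoprotein, averaged 6.84 ± 0.41 in labelled mutants and 9.35 ± 0.35 in labelled controls (SD, n = 10 and 11), a fall of 5.69-fold (-2.51 ± 0.16 log2, SE, adjusted p = 3.53e-11, limma), and its second probe differed by -2.39. Apol9b, detected on 10 arrays of labelled mutants and 4 of labelled controls, differed by 1.76 ± 0.21 (SE, adjusted p = 1.27e-06, limma), and Apol9a, detected on 10 and 8, by 1.22 ± 0.34 (SE, adjusted p = 0.0123, limma). The sequences of these 2 genes are alike, and their probes may read each other. Apoa2, a second protein of high density lipoprotein, did not pass at its brighter probe (-0.62 ± 0.33, SE, adjusted p = 0.2, limma). Its second probe, detected on 5 arrays of labelled mutants and 9 of labelled controls, did not pass either (-1.17 ± 0.48, SE, adjusted p = 0.088, limma), and the probes differed in which libraries were high, since labelled control 9 was at 9.81 on the first and 4.36 on the second. Apom also stands in a list of yolk sac and plasma protein genes shared with fetal gut. The list includes the receptor genes Lrp2 and Amn, and Afp, Ttr and Trf, which are also among the liver markers. Of its 7 tested genes 6 were lower, beside 12.6% of all genes, with a median of -2.14.

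Of 28 regulators known to act on apolipoprotein genes 6 were higher, 4 lower and 18 did not pass. Over all genes 10.6% were higher and 12.6% lower. The median of the regulators was 0.08, or 0.01 with median scaling. The 4 largest changes were rises. Ppargc1a, a coactivator of nuclear receptors, averaged 6.84 ± 0.33 in labelled mutants and 6.02 ± 0.29 in labelled controls (SD, n = 10 and 11), a difference of 0.83 ± 0.13 (SE, adjusted p = 4.68e-05, limma). Pparg, a nuclear receptor for fatty acids, ran from 8.27 through 8.44 to 8.61 in labelled mutants and from 7.37 through 7.57 to 7.94 in labelled controls, with no overlap (0.80 ± 0.07, SE, adjusted p = 1.86e-08, limma). Mlxipl, a carbohydrate-responsive factor, differed by 0.63 ± 0.11 (SE, adjusted p = 0.000146, limma) and Klf5, a zinc finger factor of crypt epithelium, by 0.58 ± 0.08 (SE, adjusted p = 1.09e-05, limma). Of 9 genes of the Creb3 family, its proteases and known targets 2 were lower, 0 higher and 7 did not pass. That count is near the share of all genes, 12.6% lower, and the list median was -0.07. The 2 were the desaturase genes Fads1 (-0.44 ± 0.11, SE, adjusted p = 0.00703, limma) and Fads2 (-0.34 ± 0.11, SE, adjusted p = 0.0253, limma).

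**Figure D5:**
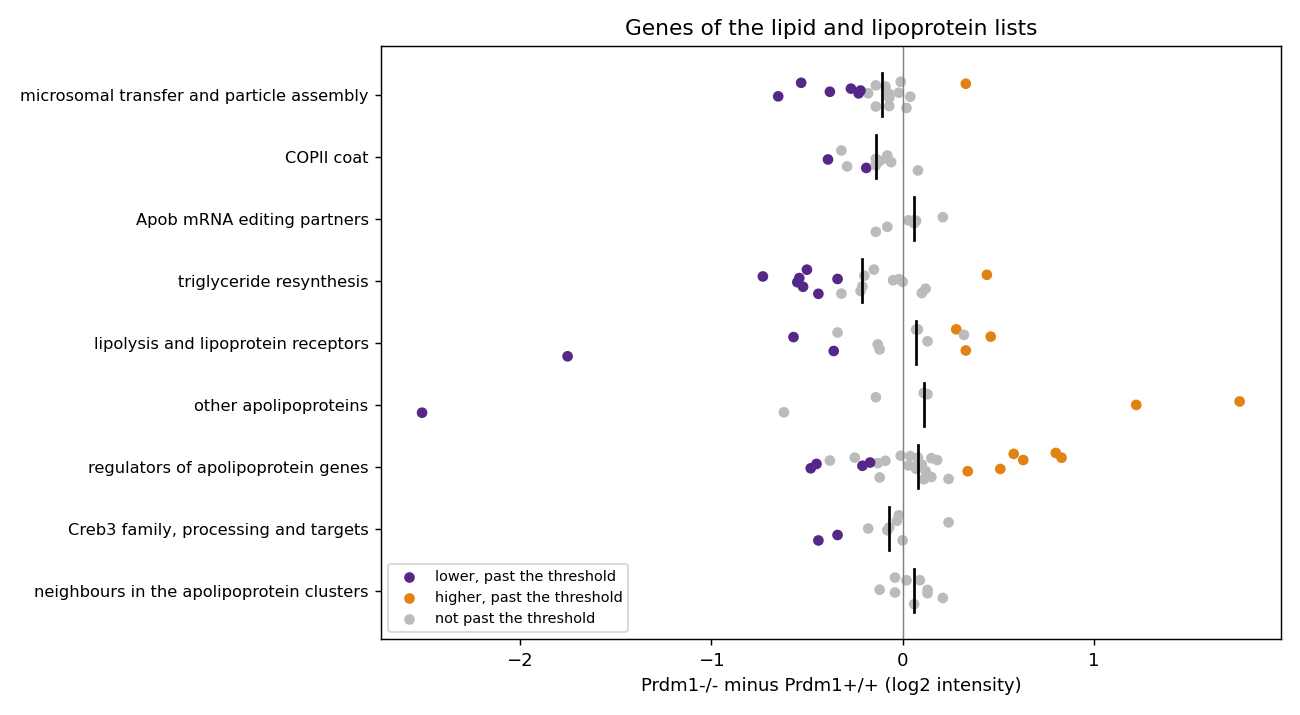
Difference of each tested gene (labelled mutants minus labelled controls, log2 intensity) in 9 lists around the lipoprotein genes, with 1 point per gene, the list median as a bar and genes past the adjusted p threshold in colour. Apom at -2.51 and Lrp2 at -1.75 lie furthest left, Apol9b at 1.76 and Apol9a at 1.22 furthest right, and the partners of Apob editing and the cluster neighbours hold 0 called genes.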

How the data were processed

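RNA of 21 small intestines was measured on Illumina WG6_V2 arrays. The authors deposited a table of raw linear intensity with detection p-values, and processed intensity values, made with GenomeStudio 2009.2 per the submitters' processing notes, and no source used here names their normalisation. From the raw table, neqc (limma 3.58.1, R 4.3.3) corrected background with normexp, added an offset of 16, normalised by quantiles and took log2, which compresses folds of dim probes. Probes with a detection p under 0.01 on at least 5 of 21 arrays were tested with lmFit and eBayes on genotype, adjusted by Benjamini-Hochberg over all 16641. Each gene of a list is given by its brightest tested probe. The probe filter, the scaling, the background step, the source of values and the libraries were varied in turn. The platform annotation gave 1 symbol to 34885 probes, several to 18 and none to 10378. From 14596 to 16085 probes were detected per array, and raw medians ran from 56.6 to 79.7. The number of arrays limits the precision. The labels name biological replicates but no litter, sex or array position, and the p-values measure the spread between these libraries. Correlations between arrays ran from 0.939 to 0.989.

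The members and lists were chosen with earlier results of these data known, as were labelled controls 8, 9 and 11 and the 6 labelled mutants left out in turn. All member probes are named, and of each list of the pathway the changed genes of largest difference, at most 4, or the 2 lowest in p in a list without calls, and for each member the gene most like it. Lists of cell type and tissue markers are given by counts and ranges, with few genes named. Additions to this rule, chosen after their values were seen, are Apoa2 and Apoc1, and several markers. The markers are Hoxd10, Hoxa13, Aqp8, Mettl7b, 1810065E05Rik, Cyp2c55, Car1, Afp, Ttr, Trf, Ahsg and Alb. The fit was tested on simulated data, where it called 17 of 50 changes of 0.3 log2, 41 of 50 of 0.5 and 49 of 50 of 1. Changes of the members' size can therefore fail to pass. Far fewer probes were called there than in the data (166 against 3485 of 16641), so these counts do not carry over directly. Permutation tests used 100000 draws. Promoters are RefSeq windows. Several listed genes had no tested probe and are not analysed here.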

Additional observations from a re-analysis of the deposited data

How the results depend on the processing

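With all 21 libraries, 8 of 14 probes and 6 of 10 genes were called, and 3485 of all probes and 2307 of all genes. Calls over members were 10 probes and 7 genes with median scaling, 8 and 6 without background correction, 6 and 4 with the deposited processed values, and 8 and 6 with detection asked of at least 10 arrays. Of all probes 11.5%, 11.6%, 10.8% and 12.1% were lower in these fits in turn, against 11.4% in the main fit. The member calls were 5 probes and 3 genes with no filter on dim probes, and 5 and 3 without labelled controls 8, 9 and 11. With no filter 3.82% of all 45281 probes were lower, and without those labelled controls 9.57% of the tested probes. Without labelled controls 9 and 11, chosen after seeing the data, the member calls were also 5 and 3, with 9.94% of all probes lower. The cause was not tested. Without the 6 labelled mutants with Hoxd10 they were 1 probe and 1 gene, with 1881 of all probes and 1251 of all genes called, in a fit with fewer samples. Leaving out 1 library gave 5 to 9 probes and 3 to 7 genes, 3161 to 3536 of all probes and 2102 to 2339 of all genes. The mean of a gene's probes gave 6 genes. Apoa4 probe 1 turned to 0.03 without the 6 labelled mutants. Apoc2 probe 2, never called, turned to 0.06 with the processed values, 0.04 without labelled controls 8, 9 and 11 and 0.32 without the 6 labelled mutants, and ran from -0.25 to 0.25 without 1 library.

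Of all calls 54.7% were lower, against 72.3% with median scaling (729 higher and 1906 lower, against 1580 and 1905), which moved the median of all probes to -0.04. With the replicate number as a block, where 10.4% of all probes were lower, 5 probes and 3 genes of the members were called, and Apoc2 probe 1, Apoc3 and Creb3l3 were not. The numbers were not taken as pairing, since correlations of same-numbered deviations ran from -0.25 to 0.30, over 0.1 in 6 of 10 pairs, and 0 labelled mutants correlated best with their own number. A covariate of the first component of the deviations, chosen after seeing the data, gave 10 probes and 7 genes, and 4549 of all probes, and one of the mean of the pancreas markers, also chosen then, gave 8 and 6. Of all probes 14.5% were lower with the first covariate and 11.4% with the other. The alternative of array batches was not run, since the files and labels name none.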
